A study of Mus musculus with 6 samples.

Results

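The genes described here are those that the deposited table places in the KEGG pathway "Citrate cycle (TCA cycle)". The rule takes every row whose pathway column holds exactly that name, and it found 32 of the 22063 genes in the table. They encode the enzymes of the tricarboxylic acid (TCA) cycle, the pyruvate dehydrogenase complex that feeds it, and the enzymes of citrate cleavage, pyruvate carboxylation and phosphoenolpyruvate formation that lead out of it or into it. The samples are 3 of CAR-Trem2-Ms and 3 of CAR-Ms, both mouse macrophages that received a lentivirus meant to make them CAR macrophages, cells with an engineered receptor against a chosen surface target. Their genotype field reads TERM2+ for CAR-Trem2-Ms and WT for CAR-Ms, and the tissue is given as skin. All grew for 7 days in DMEM with M-CSF, the macrophage growth factor, at 20 ng/mL. The CAR-Trem2-Ms labels add a 24 h exposure to VD3 at 1 µM and flow-cytometric sorting, while a treatment protocol printed for all samples also names VD3, so it is not settled whether CAR-Ms received it. Trem2 status, sorting and possibly VD3 therefore changed together, and no difference described here can be assigned to any of them alone. The sources used here give neither the receptor's target nor the construct's promoter nor the source animals.

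In the TCA cycle, acetyl groups made from pyruvate by pyruvate dehydrogenase are joined to oxaloacetate as citrate and oxidised in the mitochondrial matrix, and the electrons pass to the respiratory chain. Several steps have a second enzyme in the cytosol that works on the same metabolite. Macrophages are known to rewire the cycle when they are activated: citrate is exported for lipid synthesis, cis-aconitate is turned into the antimicrobial acid itaconate, and succinate acts as a signal.

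Libraries held 9804959 to 12558021 reads assigned to genes in CAR-Trem2-Ms and 14204468 to 15913100 in CAR-Ms. Trem2 itself averaged 191.2 ± 7.56 CPM (reads scaled to the library's size with TMM factors) in CAR-Trem2-Ms and 76.6 ± 2.31 CPM in CAR-Ms (SD, n = 3 each), the direction their labels give. Of 10 macrophage markers, 9 had enough reads to be tested, and their summed level ran from 4485 to 4516 CPM in CAR-Trem2-Ms and from 3815 to 3851 CPM in CAR-Ms, with Mrc1, a mannose receptor, at no more than 0.54 CPM in any sample. The sum covers changes in both directions: in CAR-Trem2-Ms 2 of the 9 fell and 7 rose. Named after their values were seen, Csf1r, the M-CSF receptor, averaged 862.1 ± 6.58 CPM in CAR-Trem2-Ms and 1264 ± 11.996 CPM in CAR-Ms, and Cd14, a co-receptor for bacterial lipopolysaccharide, averaged 494.6 ± 18.01 CPM in CAR-Trem2-Ms and 164.0 ± 6.36 CPM in CAR-Ms (SD, n = 3 each). Of 6 keratinocyte markers, 4 (Krt5, Krt1, Krt10 and Trp63) had no read, while Dsp had reads in every sample, at no more than 1.15 CPM. The 7 fibroblast markers together came to 4.77 to 5.63 CPM in CAR-Trem2-Ms and 2.35 to 2.97 CPM in CAR-Ms. In cells grown as macrophages these markers cannot speak to the tissue label skin. The 8 neutrophil markers together came to 2.56 to 5.95 CPM in CAR-Trem2-Ms and 18.4 to 34.7 CPM in CAR-Ms, and all 5 of them that were tested were lower in CAR-Trem2-Ms. Of the untested ones, Ly6g and Elane were at 0 in CAR-Trem2-Ms and at no more than 0.07 CPM in any CAR-Ms sample. Mpo averaged 0.46 ± 0.26 CPM in CAR-Trem2-Ms and 0.35 ± 0.31 CPM in CAR-Ms (SD, n = 3 each). The part that cells with neutrophil markers have in the results was not tested. Mitochondrially encoded transcripts made up 13.5 ± 0.24% of all reads in CAR-Trem2-Ms and 4.65 ± 0.054% in CAR-Ms (SD, n = 3 each).

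Most enzymes of the cycle were expressed at a lower level in CAR-Trem2-Ms. Of the 32 genes, 27 had enough reads to be tested, and 20 of these fell, 4 rose and 3 did not pass the test. The genes that rose were Pck2, Mdh1, Sdhb and Pdhb, of which all but Pck2 fell on log2(TPM + 1). The call is an adjusted p under 0.05 in edgeR's quasi-likelihood test with the Benjamini-Hochberg method over all 11402 tested genes. Among those 11402 genes 81.1% were called, 40.1% lower and 40.9% higher, against 74.1% lower and 14.8% higher of the tested members. The median log2 fold change, CAR-Trem2-Ms over CAR-Ms, was -0.39 over the tested members and 0.03 over all tested genes. By size, 3 members (Idh3a, Suclg2 and Sdhd) fell and 1 (Pck2) rose by at least 2-fold, where 14.3% of all tested genes fell and 18.7% rose by that much. With upper quartile factors no member fell by that much (Idh3a stood at -0.96) and 1 rose, where 9.24% of all genes fell and 24.3% rose. On log2(TPM + 1) 16 members fell and 1 rose by that much, where 34% of all genes fell and 5.76% rose. The groups did not overlap in 25 of the 27, where the same held for 81.8% of all tested genes. In bulk RNA, fewer cells of a type and less RNA per cell cannot be told apart.

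The size of the fall, and the sign of the smallest changes, depended on how libraries were scaled, and the median of all genes moved with it. CPM with TMM factors put the median of all genes at 0.03, upper quartile factors put it at 0.26, total-count scaling at -0.10, and the authors' TPM (transcript levels scaled for gene length to a fixed total), tested as log2(TPM + 1) in limma, at -0.63. The members' median lay 0.42 below that of all genes on each of the 3 count scales, which shift all genes alike, and 0.45 below it on the TPM scale. On all 4 of these scales, 21 of the 27 tested members lay below the median of all genes. Counts of calls moved with the scale: with upper quartile factors 15 members fell and 7 rose, where 31.6% of all genes fell and 50.1% rose, and on log2(TPM + 1) 25 fell and 1 rose, where 64.2% of all genes fell and 17.5% rose. Leaving out the transcripts of the mitochondrial genome before scaling left 20 members lower and 4 higher. Below, "rose" and "fell" refer to counts with TMM factors.

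**Figure D1:**
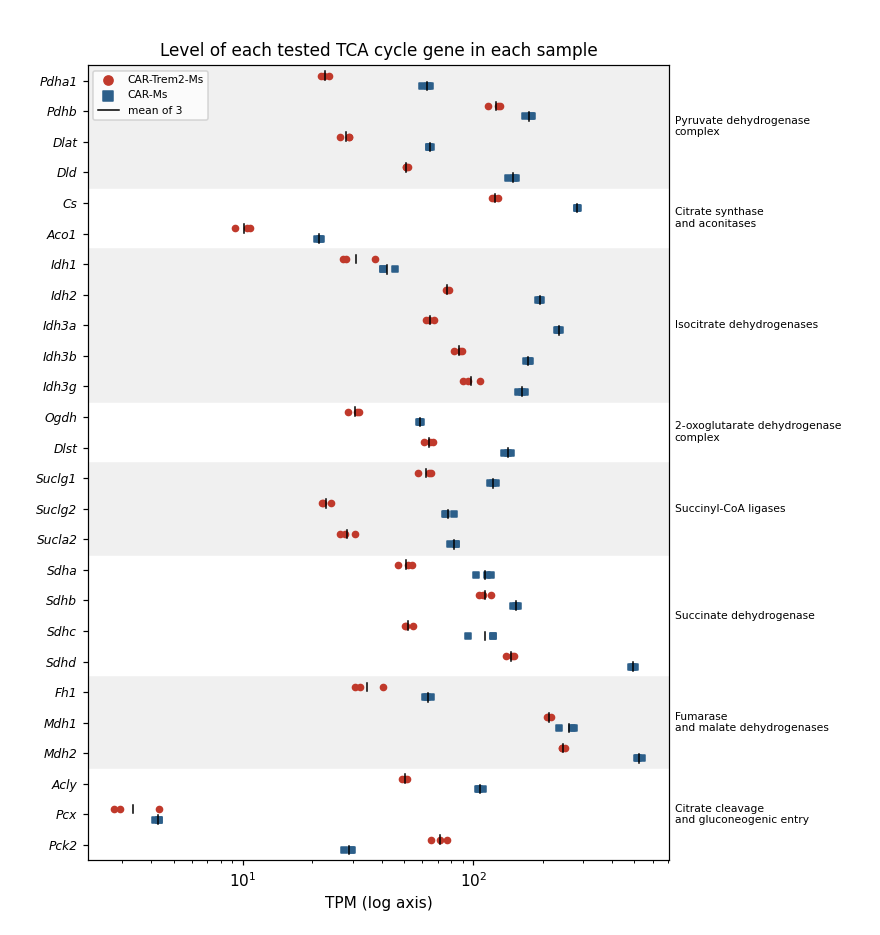
Level of 26 tested TCA cycle genes in TPM on a log axis, for the 3 CAR-Trem2-Ms samples (red circles) and the 3 CAR-Ms samples (blue squares), with the mean of each group as a black tick, in the order of the enzyme groups. All genes but Pck2 and Pcx have every CAR-Trem2-Ms point left of every CAR-Ms point, Pck2 has the reverse order and the groups overlap for Pcx; on this scale the median of all genes is itself shifted by -0.63 (log2).

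**Figure D2:**
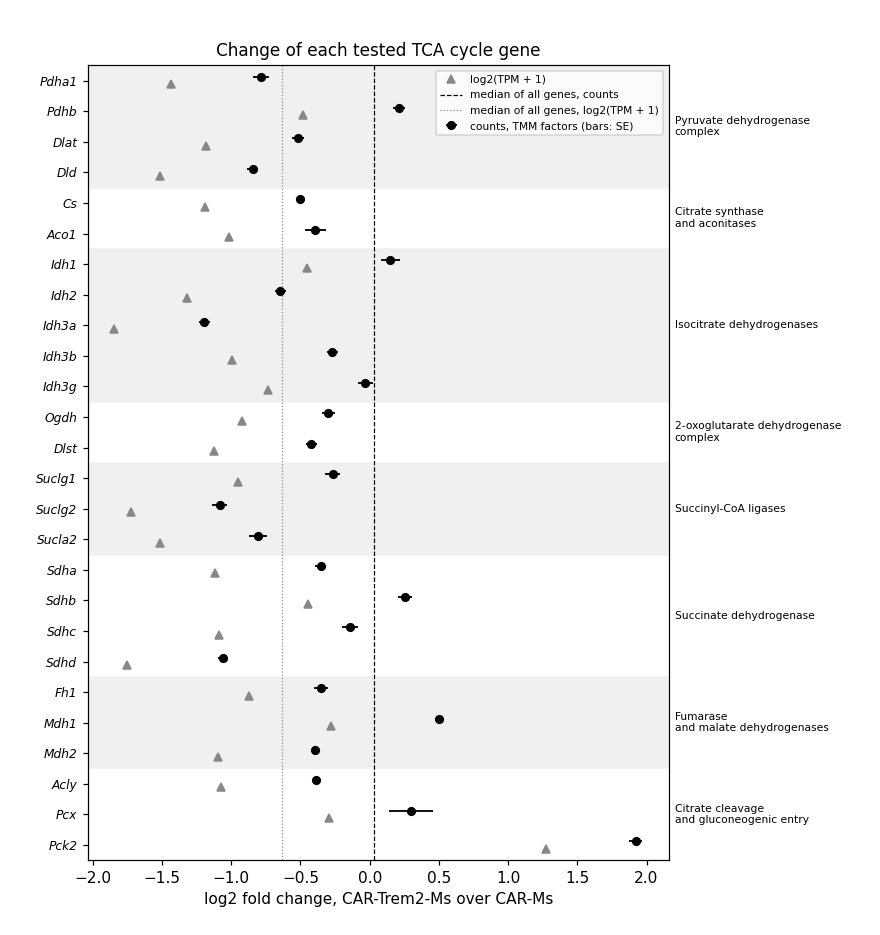
Log2 fold change, CAR-Trem2-Ms over CAR-Ms, of the same 26 genes from counts with TMM factors (black circles, bars are the standard error of the fit over 3 against 3 samples) and on log2(TPM + 1) (grey triangles), with the median of all genes on each scale as a vertical line. On both scales 20 genes lie left of their line, and Idh3a is farthest left and Pck2 farthest right.

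By level per length, malate dehydrogenase stood at the top in both groups. Mdh2 averaged 245.2 ± 4.58 TPM in CAR-Trem2-Ms and 524.5 ± 15.5 TPM in CAR-Ms (SD, n = 3 each). In CAR-Trem2-Ms it was followed by Mdh1 at 212.4 ± 3.81, Sdhd at 145.1 ± 5.37, Pdhb at 125.0 ± 7.68 and Cs at 123.7 ± 3.46 TPM, of which Pdhb and Cs lay within each other's spread. In CAR-Ms it was followed by Sdhd at 492.4 ± 9.35, Cs at 283.0 ± 2.07, Mdh1 at 259.2 ± 20.7 and Idh3a at 234.3 ± 3.35 TPM. Sdhd thus stood next to Mdh2 in CAR-Ms and below Mdh1 in CAR-Trem2-Ms, and Idh3a, at 64.6 ± 2.65 TPM in CAR-Trem2-Ms, was the lowest of the 3 subunits of its enzyme there and the highest in CAR-Ms. These orders are those of TPM, with no correction for GC content. With GC content and length corrected for, the log2 fold changes were -0.92 for Idh3a, -0.48 for Idh3b and -0.32 for Idh3g. Whether the order of the 3 still turns after that correction was not tested. The summed level of all members was 1986 ± 22.6 TPM in CAR-Trem2-Ms and 4129 ± 44.1 TPM in CAR-Ms (SD, n = 3 each). As reads, without TMM factors, it was 3456 ± 17.5 CPM in CAR-Trem2-Ms and 4871 ± 20.6 CPM in CAR-Ms.

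Of the pyruvate dehydrogenase complex, the matrix enzyme that turns pyruvate into acetyl-CoA, Pdha1, Dlat and Dld fell and Pdhb rose on the TMM scale. Pdha1 encodes the catalytic alpha subunit whose phosphorylation switches the complex off (chromosome X, 160122209 to 160138413, minus strand, GRCm38). It read 61.4, 58.9 and 64.0 CPM in CAR-Trem2-Ms replicates 1, 2 and 3, against 108.2, 101.5 and 108.6 CPM in CAR-Ms. The groups were well apart, with a log2 fold change of -0.79 ± 0.06 (SE; edgeR adjusted p = 2.0e-13). Pdha1 shares 425 exon bases with Map3k15 on the opposite strand, which averaged 0.127 CPM in CAR-Trem2-Ms and 0.13 CPM in CAR-Ms; whether counting took account of strand is not stated, so reads in shared exons are uncertain to that extent. Pdhb encodes the beta subunit that pairs with Pdha1 (chromosome 14, 8165996 to 8173025, minus strand). It read 150.6, 167.5 and 162.8 CPM in CAR-Trem2-Ms, against 141.9, 141.7 and 131.6 CPM in CAR-Ms. Pdhb was higher in each CAR-Trem2-Ms sample, by 0.21 ± 0.04 on the log2 scale (adjusted p = 1.1e-04 in edgeR), a call lost with total-count scaling (0.085, adjusted p = 0.0847) and turned round on log2(TPM + 1), where it fell by 0.48. Relative to the median of all genes it was higher on the TMM scale and on log2(TPM + 1), by 0.18 and 0.15. Dlat, the acetyltransferase core, read 115.8, 104.8 and 115.0 CPM in CAR-Trem2-Ms and 162.8, 160.2 and 159.2 CPM in CAR-Ms, a log2 fold change of -0.52 ± 0.04. Dld, the flavoprotein that this complex shares with the other 2-oxo acid dehydrogenases, read 122.6, 123.4 and 121.1 CPM in CAR-Trem2-Ms and 228.1, 209.9 and 221.5 CPM in CAR-Ms. Among the tested KEGG members of the complex Dld fell most, by 0.84 ± 0.04 on the log2 scale (adjusted p = 2.2e-17 in edgeR). Pdhx, a part of the complex outside the KEGG list, fell further (-1.21, given below). Pdha2, an alpha subunit made in testis, had no read.

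Citrate synthase and the cytosolic aconitase fell. Cs, which joins acetyl-CoA to oxaloacetate (chromosome 10, 128337734 to 128362479, plus strand), stood at 347.7, 336.0 and 355.4 CPM in CAR-Trem2-Ms, against 493.8, 488.9 and 493.5 CPM in CAR-Ms. Its log2 fold change was -0.51 ± 0.03 (edgeR adjusted p = 6.3e-16), with the samples of each group close together. Aco1, the cytosolic aconitase, which also serves as an iron-sensing RNA-binding protein, averaged 38.2 ± 3.22 CPM in CAR-Trem2-Ms and 50.4 ± 1.01 CPM in CAR-Ms (SD, n = 3 each), a fall of 0.39 ± 0.08 on the log2 scale that was not called with upper quartile factors (adjusted p = 0.0531 in edgeR).

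Of the 5 isocitrate dehydrogenase genes, 3 fell and 2 did not pass on the TMM scale, and all 5 passed as lower on log2(TPM + 1). Idh3a, the catalytic subunit of the NAD-dependent enzyme of the cycle (chromosome 9, 54586334 to 54604661, plus strand), stood at 128.3, 118.1 and 114.1 CPM in CAR-Trem2-Ms, against 271.6, 275.1 and 280.0 CPM in CAR-Ms. Each CAR-Trem2-Ms sample lay far below each CAR-Ms sample, and the log2 fold change of -1.20 ± 0.04 (edgeR adjusted p = 6.0e-21) was the lowest of all tested members. Its partner subunits changed less: Idh3b fell by 0.27 ± 0.04 on the log2 scale, to 118.7 ± 3.83 CPM in CAR-Trem2-Ms against 142.9 ± 2.31 CPM in CAR-Ms, a call lost with upper quartile factors (-0.037, adjusted p = 0.429 in edgeR). Idh3g, the regulatory gamma subunit, overlapped between the groups, at 105.9 ± 9.66 CPM in CAR-Trem2-Ms and 108.5 ± 4.30 CPM in CAR-Ms, and did not pass (adjusted p = 0.582 in edgeR). It passed as higher with upper quartile factors (0.20), and as lower on log2(TPM + 1) (-0.73) and with total counts as the scale (-0.16). Idh2, the NADP-dependent enzyme of mitochondria, fell by 0.65 ± 0.04, to 117.0 ± 3.31 CPM in CAR-Trem2-Ms against 183.2 ± 3.01 CPM in CAR-Ms. Idh1, its cytosolic counterpart and a source of NADPH, averaged 60.5 ± 4.76 CPM in CAR-Trem2-Ms and 54.4 ± 2.99 CPM in CAR-Ms, and did not pass (log2 0.15 ± 0.07, adjusted p = 0.0515 in edgeR). Idh1 was called higher with upper quartile factors (0.38, adjusted p = 1.5e-05 in edgeR) and lower on log2(TPM + 1) (-0.45, adjusted p = 0.0107 in limma). Without CAR-Trem2-Ms replicate 3 its adjusted p was 0.0221, and without CAR-Ms replicate 3 it was 0.037.

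Both tested genes of the 2-oxoglutarate dehydrogenase complex, which makes succinyl-CoA, fell. Dlst, the succinyltransferase core (chromosome 12, 85110833 to 85134845, plus strand), stood at 159.9, 168.5 and 172.5 CPM in CAR-Trem2-Ms and 217.8, 233.1 and 219.3 CPM in CAR-Ms, a log2 fold change of -0.42 ± 0.04 with no overlap between the groups. Ogdh, the thiamine-dependent dehydrogenase subunit, averaged 115.3 ± 6.80 CPM in CAR-Trem2-Ms and 142.2 ± 0.266 CPM in CAR-Ms (SD, n = 3 each), a log2 fold change of -0.30 ± 0.05 that was not called with upper quartile factors (adjusted p = 0.172 in edgeR). Ogdhl, an Ogdh-like gene, had 11, 14 and 0 reads in CAR-Trem2-Ms and 5, 1 and 4 reads in CAR-Ms, too few to be tested. Its groups overlapped, and the ratio of summed reads per library total was 3.23 (exact 95% interval 1.50 to 7.53, counting error only).

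The succinyl-CoA ligases, which make a nucleoside triphosphate directly, all fell, and the beta subunits fell further than the shared alpha subunit. Suclg2, the GTP-forming beta subunit (chromosome 6, 95473009 to 95718800, minus strand), read 62.7, 59.4 and 56.8 CPM in CAR-Trem2-Ms, against 134.3, 123.1 and 122.3 CPM in CAR-Ms. The log2 fold change was -1.08 ± 0.06 (edgeR adjusted p = 1.2e-16), and the groups did not overlap. Suclg2 is 98.9% identical over 1302 bases to the processed pseudogene Gm15163, so some of its reads may come from there. Sucla2, the ATP-forming beta subunit, fell by 0.80 ± 0.07, to 43.5 ± 2.02 CPM in CAR-Trem2-Ms against 76.1 ± 3.43 CPM in CAR-Ms. Suclg1, the alpha subunit of both forms (chromosome 6, 73248382 to 73276911, plus strand), stood at 74.7, 84.2 and 82.1 CPM in CAR-Trem2-Ms and 94.1, 96.8 and 98.7 CPM in CAR-Ms, a log2 fold change of -0.27 ± 0.05 that was not called with upper quartile factors (adjusted p = 0.547 in edgeR).

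Succinate dehydrogenase, which is also complex II of the respiratory chain, showed opposite changes in its subunits on the TMM scale. Sdhd, a membrane anchor subunit (chromosome 9, 50596357 to 50603812, minus strand), read 137.5, 143.1 and 145.8 CPM in CAR-Trem2-Ms, against 292.6, 297.2 and 299.8 CPM in CAR-Ms. The log2 fold change was -1.06 ± 0.04 (edgeR adjusted p = 4.8e-21), with a wide gap between the groups. Sdhb, the iron-sulfur subunit (chromosome 4, 140961203 to 140979193, plus strand), averaged 98.9 ± 6.16 CPM in CAR-Trem2-Ms and 82.7 ± 1.92 CPM in CAR-Ms (SD, n = 3 each). It rose by 0.25 ± 0.05 on the log2 scale (adjusted p = 9.6e-05 in edgeR), but its sign turned on log2(TPM + 1), where it fell by 0.45, and once GC content and length were corrected for (-0.11, adjusted p = 0.063). Relative to the median of all genes it was higher by 0.23 on the TMM scale and by 0.19 on log2(TPM + 1), and stood at -0.025 from it after that correction. Sdha, the flavoprotein with the succinate site, fell by 0.36 ± 0.04, to 138.9 ± 7.67 CPM in CAR-Trem2-Ms against 178.2 ± 4.78 CPM in CAR-Ms. Sdhc, the other anchor, was lower by 0.14 ± 0.06 (adjusted p = 0.0299 in edgeR), a call that was lost without CAR-Trem2-Ms replicate 2 (0.0605), CAR-Ms replicate 1 (0.152) or CAR-Ms replicate 3 (0.053) and whose sign turned with upper quartile factors (0.091).

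The promoters of Sdhd and Sdhb are shown because these subunits of a single enzyme differ most within it. They are RefSeq windows on GRCm38.p6, from 250 bases before to 50 bases after the transcript start, read along the gene's strand, at chr9:50603800-50604099 (minus strand) for Sdhd and chr4:140961021-140961320 (plus strand) for Sdhb. Capitals mark matches, on either strand, to motifs of factors known for mitochondrial genes: the NRF1 core GCGCANGCG, the ETS motif CCGGAAG bound by GABPA, and the oestrogen-related receptor motif TCAAGGTCA.
Sdhd: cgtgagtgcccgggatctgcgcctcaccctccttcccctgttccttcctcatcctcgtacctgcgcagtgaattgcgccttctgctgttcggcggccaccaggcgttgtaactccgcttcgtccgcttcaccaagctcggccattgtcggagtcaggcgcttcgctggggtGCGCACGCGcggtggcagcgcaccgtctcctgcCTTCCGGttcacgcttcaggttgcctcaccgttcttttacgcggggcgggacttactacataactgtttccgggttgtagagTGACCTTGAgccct
Sdhb: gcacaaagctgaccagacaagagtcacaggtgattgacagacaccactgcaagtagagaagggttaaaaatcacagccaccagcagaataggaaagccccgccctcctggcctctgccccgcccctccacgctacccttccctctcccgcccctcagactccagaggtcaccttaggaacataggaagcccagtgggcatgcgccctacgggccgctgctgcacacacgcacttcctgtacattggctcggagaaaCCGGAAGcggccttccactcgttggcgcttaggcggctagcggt
The Sdhd window held 1 match to each of the 3 motifs and the Sdhb window 1 match, to the ETS motif. Among the 29 members with a window in the table, the NRF1 core was in 5 (Dld, Ogdh, Sdha, Sdhd and Sucla2), the ETS motif in 5 (Dlst, Idh3b, Idh3g, Sdhb and Sdhd) and the receptor motif in Sdhd. Over all 32851 windows the shares were 6.25% for the NRF1 core, 8.86% for the ETS motif and 0.42% for the receptor motif. The YY1 motif AANATGGCG (2.38% of all windows) was in Idh3g and Ogdh, and the cyclic AMP response element TGACGTCA (1.79%) in Mdh2 and Ogdh. A match describes letters in the window and shows no binding.

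Fumarase and mitochondrial malate dehydrogenase fell while cytosolic malate dehydrogenase rose on the TMM scale and fell less than them on log2(TPM + 1). Mdh2, which closes the cycle by making oxaloacetate (chromosome 5, 135778480 to 135790398, plus strand), stood at 299.2, 294.2 and 304.6 CPM in CAR-Trem2-Ms, against 385.8, 391.1 and 405.7 CPM in CAR-Ms. Its log2 fold change was -0.40 ± 0.03 (edgeR adjusted p = 8.2e-13) with no overlap. Mdh1, the cytosolic enzyme of the malate-aspartate shuttle, averaged 296.2 ± 9.996 CPM in CAR-Trem2-Ms and 208.6 ± 5.80 CPM in CAR-Ms (SD, n = 3 each), a rise of 0.50 ± 0.03 on the log2 scale (adjusted p = 9.6e-14 in edgeR). On log2(TPM + 1) it fell by 0.28, but relative to the median of all genes it was higher by 0.35 on that scale and by 0.48 on the TMM scale. Mdh1 shares 52 exon bases with Wdpcp on the opposite strand, which averaged 14.2 CPM in CAR-Trem2-Ms and 5.96 CPM in CAR-Ms. Fh1, fumarase, fell by 0.35 ± 0.05, to 76.3 ± 3.15 CPM in CAR-Trem2-Ms against 97.1 ± 1.99 CPM in CAR-Ms.

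Pck2 showed the largest change among the tested members on the TMM scale, whereas on log2(TPM + 1) several falls were larger, that of Idh3a (-1.84) among them. It encodes the mitochondrial phosphoenolpyruvate carboxykinase, which draws oxaloacetate out of the cycle and is a known target of the stress-induced transcription factor ATF4 (chromosome 14, 55540266 to 55551242, plus strand). It shares 53 exon bases with the antisense gene Gm10876. It read 199.0, 213.5 and 204.5 CPM in CAR-Trem2-Ms, against 53.7, 57.7 and 51.1 CPM in CAR-Ms. The groups stood far apart, with a 3.79-fold rise (log2 1.92 ± 0.05 SE; edgeR adjusted p = 7.5e-24), and Pck2 was the member called higher on log2(TPM + 1) as well, at 1.27. Pck1, the cytosolic form typical of liver and kidney, had 0, 0 and 3 reads in CAR-Trem2-Ms and 7, 9 and 5 reads in CAR-Ms, a ratio of summed reads per library total of 0.184 (exact 95% interval 0.0352 to 0.618), too few to be tested. Acly, which cleaves exported citrate to acetyl-CoA in the cytosol (chromosome 11, 100476353 to 100528000, minus strand), read 219.0, 217.0 and 211.3 CPM in CAR-Trem2-Ms and 275.0, 283.7 and 287.5 CPM in CAR-Ms. Acly fell by 0.39 ± 0.03 on the log2 scale with no overlap. Pcx, pyruvate carboxylase, which refills oxaloacetate, was low at 11.2, 17.3 and 11.8 CPM in CAR-Trem2-Ms and 10.5, 11.1 and 10.9 CPM in CAR-Ms, and did not pass (log2 0.30 ± 0.16; adjusted p = 0.083 in edgeR). CAR-Trem2-Ms replicate 2 stood above all other samples for Pcx, and the adjusted p was 0.0281 without CAR-Trem2-Ms replicate 1 and 0.0465 without CAR-Trem2-Ms replicate 3. It was called higher with upper quartile factors (0.53, adjusted p = 0.00339 in edgeR), and on log2(TPM + 1) its sign turned without a call (-0.30, adjusted p = 0.109 in limma).

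The Pck2 promoter is shown because this gene moved against most of the others. The window is chr14:55540016-55540315 on the plus strand of GRCm38.p6 (RefSeq, 250 bases before to 50 after the start), and the capitals mark a match to TGATGNAA, the composite element of C/EBP and ATF factors, on the opposite strand.
Pck2: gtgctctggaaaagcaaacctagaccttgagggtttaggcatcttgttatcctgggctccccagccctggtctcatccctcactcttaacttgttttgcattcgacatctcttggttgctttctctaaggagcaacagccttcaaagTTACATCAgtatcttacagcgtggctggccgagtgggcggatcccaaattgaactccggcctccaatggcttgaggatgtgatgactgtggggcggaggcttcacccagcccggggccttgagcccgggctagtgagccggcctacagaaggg
Pck2 was the member, of 29 with a window, that held this element, which was in 3.97% of all windows. The match begins 103 bases before the start.

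Besides Pdha2, Csl and 4933405O20Rik had 0 reads in all samples, which allows a level of up to 0.0867 CPM in CAR-Trem2-Ms and 0.0672 CPM in CAR-Ms (3 counts over the group).

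Ratios of partner genes within a library do not depend on the factor by which that library is scaled. Effects of GC content and length that differ between libraries remain in them. After the GC and length correction the log2 fold change was -0.92 for Idh3a and -0.32 for Idh3g, a narrower gap than on the TMM scale. For Mdh2 and Mdh1 it was -0.93 and 0.37, a wider gap. The 6 pairs compared were chosen after the values were seen, as partner subunits or as the mitochondrial and cytosolic forms of an enzyme, and ratios are of TPM. Sdhd stood at 1.26, 1.23 and 1.42 times Sdhb in CAR-Trem2-Ms and at 3.16, 3.32 and 3.21 times Sdhb in CAR-Ms. Pdha1 stood at 0.193, 0.166 and 0.186 of Pdhb in CAR-Trem2-Ms and at 0.358, 0.336 and 0.387 of it in CAR-Ms. Idh3a relative to Idh3g was 0.664 ± 0.028 in CAR-Trem2-Ms and 1.45 ± 0.068 in CAR-Ms (SD, n = 3 each), so the order of these subunits turned in uncorrected TPM. The mitochondrial form was lower relative to the cytosolic form in both pairs compared. Pck2 and Pck1, also a mitochondrial and a cytosolic form, were not compared this way because Pck1 had so few reads, and their changes above ran the other way, with Pck2 higher and Pck1 at 3 reads in CAR-Trem2-Ms against 21 reads in CAR-Ms. Mdh2 to Mdh1 was 1.15 ± 0.033 in CAR-Trem2-Ms and 2.03 ± 0.139 in CAR-Ms. Idh2 to Idh1 was 2.55 ± 0.460 in CAR-Trem2-Ms and 4.62 ± 0.380 in CAR-Ms. In these 5 pairs the groups did not overlap. Their two-sided exact permutation p was 0.1, the smallest that 3 against 3 samples allow, and 0.12 adjusted over the 6 pairs, so the test could not pass. Suclg2 to Sucla2 overlapped between the groups, at 0.815 ± 0.096 in CAR-Trem2-Ms and 0.944 ± 0.036 in CAR-Ms (exact permutation p = 0.2, adjusted 0.2).

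**Figure D3:**
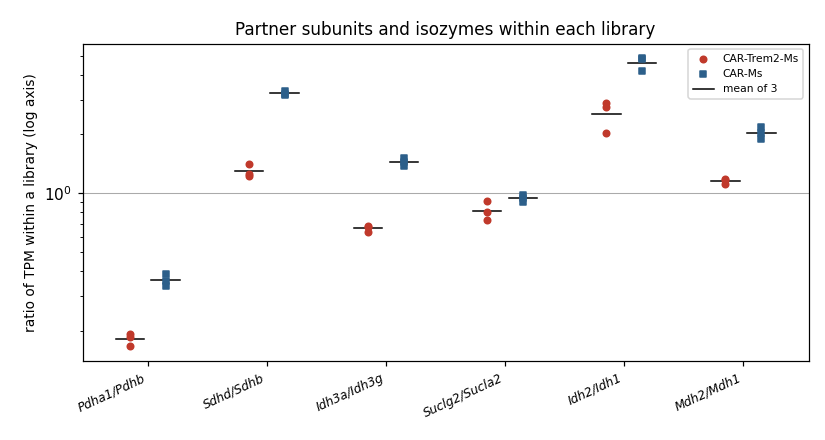
Ratio of TPM between partner genes within each library, on a log axis, for the 3 CAR-Trem2-Ms samples (red circles, left of each pair) and the 3 CAR-Ms samples (blue squares), with group means as black bars and a grey line at a ratio of 1. The CAR-Trem2-Ms ratios lie below the CAR-Ms ratios without overlap in all pairs but Suclg2/Sucla2, and Idh3a/Idh3g lies below 1 in CAR-Trem2-Ms and above 1 in CAR-Ms.

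The counts for the further gene lists that follow stand against the 40.1% of all tested genes called lower and the 40.9% called higher on the TMM scale, and none of them is read as particular to its list. Of 10 genes that regulate or supply pyruvate dehydrogenase, 9 were tested: 4 were called lower, 3 higher and 2 neither, shares near those of all genes. The kinases that switch the complex off differed among themselves. Pdk1 read 35.2, 36.7 and 27.7 CPM in CAR-Trem2-Ms and 67.9, 61.3 and 62.4 CPM in CAR-Ms, a log2 fold change of -0.95 ± 0.08 (edgeR adjusted p = 3.4e-11), and Pdk3 fell by 0.68 ± 0.10. Pdk2, at a low level, rose 4.65-fold, with 5.78 ± 1.01 CPM in CAR-Trem2-Ms and 1.24 ± 0.42 CPM in CAR-Ms (SD, n = 3 each). Pdk4 had no more than 0.34 CPM in any sample and was not tested. Pdhx, which holds the E3 subunit in the complex but is not in the KEGG list, fell by 1.21 ± 0.07, to 28.7 ± 1.09 CPM in CAR-Trem2-Ms against 66.5 ± 1.11 CPM in CAR-Ms, a fall beside that of Dld, the E3 subunit itself. Pdpr, the regulatory subunit of the pyruvate dehydrogenase phosphatase, fell by 1.01 ± 0.11. In the list of lipoylation and cofactor supply, 4 of 11 rose, near the 40.9% of all genes, 2 fell and 5 did not pass. Lias, which makes the lipoyl group that Dlat and Dlst carry, fell by 1.16 ± 0.08, to 22.6 ± 1.15 CPM in CAR-Trem2-Ms against 50.7 ± 0.76 CPM in CAR-Ms. Lipt1, a lipoyl transferase, and Oxsm, of mitochondrial fatty acid synthesis, rose by 1.13 ± 0.25 and 1.07 ± 0.17. Their calls were lost on log2(TPM + 1), at 0.38 and 0.059, where the median of all genes stood at -0.63.

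Of only 4 assembly factors of succinate dehydrogenase, 3 rose and 1 fell, where 81.1% of all tested genes were called and 40.9% were higher. Sdhaf3, Sdhaf4 and Sdhaf1 rose by 1.84 ± 0.26, 1.51 ± 0.18 and 1.47 ± 0.15 on the log2 scale (SE), each with under 10 CPM in CAR-Ms, and these also passed as higher on log2(TPM + 1). Sdhaf3 read 7.77, 6.16 and 6.91 CPM in CAR-Trem2-Ms and 2.23, 1.63 and 1.98 CPM in CAR-Ms. Sdhaf2, which inserts the flavin into Sdha and was named after its values were seen, fell by 0.80 ± 0.09.

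Among carriers that move cycle intermediates across the inner membrane, 6 of 8 were tested, of which 3 rose and 3 fell, close to the 40.9% and 40.1% of all genes. Slc25a13, an aspartate-glutamate carrier of the malate-aspartate shuttle, fell by 1.13 ± 0.09, and Slc25a10, the dicarboxylate carrier, by 1.07 ± 0.10. Slc25a22, a glutamate carrier, rose by 0.81 ± 0.07, to 76.0 ± 8.76 CPM in CAR-Trem2-Ms against 43.6 ± 1.36 CPM in CAR-Ms (SD, n = 3 each). On log2(TPM + 1) its change of -0.063 did not pass, where the median of all genes stood at -0.63.

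Of 18 genes of carbon entry and exit beside the cycle, 16 had enough reads: 6 were called lower, 5 higher and 5 neither, no more than the 81.1% of all genes called. Acod1, which turns cis-aconitate into itaconate, read 110.7, 98.9 and 113.4 CPM in CAR-Trem2-Ms, against 2.16, 2.89 and 2.11 CPM in CAR-Ms. Acod1 was low in CAR-Ms and rose 44.7-fold (log2 5.48 ± 0.11; edgeR adjusted p = 2.4e-26). Mcee, an epimerase on the route from propionate to succinyl-CoA, rose by 1.69 ± 0.21, to 9.91 ± 0.88 CPM in CAR-Trem2-Ms against 3.08 ± 0.38 CPM in CAR-Ms.

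**Figure D4:**
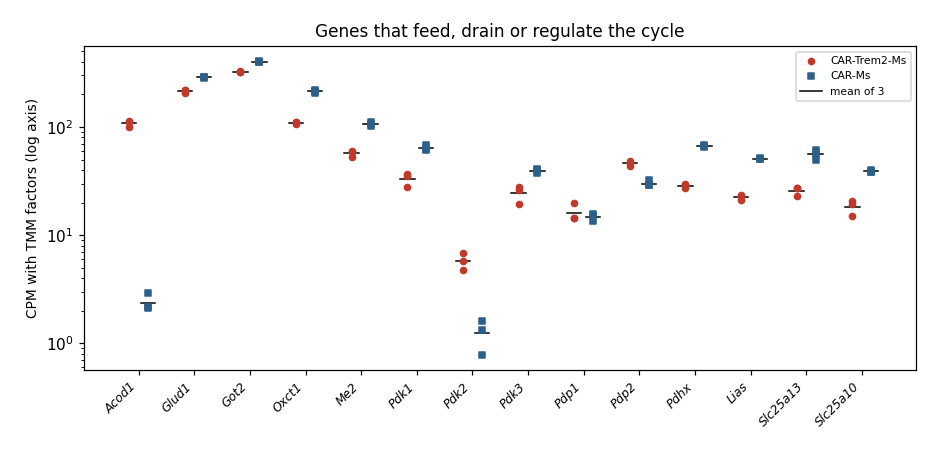
CPM with TMM factors on a log axis for 14 genes that feed, drain or regulate the cycle, in the 3 CAR-Trem2-Ms samples (red circles, left of each gene) and the 3 CAR-Ms samples (blue squares), with group means as black bars. Acod1, Pdk2 and Pdp2 stand higher in CAR-Trem2-Ms, Pdp1 overlaps, and the other genes plotted stand lower, Pdhx by 1.21 on the log2 scale. On log2(TPM + 1) Pdp2 stood at -0.054, where the median of all genes stood at -0.63. The genes were picked after their values were seen and do not represent their lists. Carriers and lipoylation genes that rose are not plotted, and over the 7 lists together 23 genes rose and 23 fell.

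Of 7 genes of 2-hydroxyglutarate removal and related dehydrogenases, 6 had enough reads: 1 was called lower, 3 higher and 2 neither, where 40.1% of all genes were lower and 40.9% higher. D2hgdh, which oxidises D-2-hydroxyglutarate back to 2-oxoglutarate, rose by 0.87 ± 0.14, to 17.3 ± 2.25 CPM in CAR-Trem2-Ms against 9.38 ± 0.44 CPM in CAR-Ms. That call was lost on log2(TPM + 1) (0.053), where the median of all genes stood at -0.63. Bckdha, of the branched-chain 2-oxo acid dehydrogenase, which also uses Dld, rose by 0.96 ± 0.09.

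Of 10 tested regulators of mitochondrial gene expression, 6 fell, 2 rose and 2 did not pass, where 81.1% of all genes were called and 40.1% were lower. Gabpa, which binds the ETS motif shown above, fell by 1.49 ± 0.05, to 58.4 ± 2.85 CPM in CAR-Trem2-Ms against 164.8 ± 1.43 CPM in CAR-Ms. That motif was in Sdhd, which fell, and in Sdhb, which rose. Of the factors of the other motifs shown for Sdhd, named after their values were seen, Nrf1 fell by 0.50 ± 0.08. Esrra, an oestrogen-related receptor, rose by 0.53 ± 0.09, a call lost on log2(TPM + 1) (-0.15). A link between these factors and the members was not tested. Tfam, the packaging and transcription factor of mitochondrial DNA, fell by 1.19 ± 0.06, beside the higher share of reads from the mitochondrial genome in the same samples. Yy1 fell by 0.98 ± 0.04, to 117.9 ± 8.20 CPM in CAR-Trem2-Ms against 232.3 ± 8.13 CPM in CAR-Ms. Over the 7 lists together, 23 genes rose and 23 fell on the TMM scale, against 35 and 21 with upper quartile factors and 7 and 39 on log2(TPM + 1). The part that sorting, VD3, the share of mitochondrial reads and the neutrophil markers have in these differences was not tested.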

How the data were processed

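RNA of 6 mouse macrophage samples was sequenced; the labels' protocols name Trizol and a SMARTER mRNA-Seq kit. The tools in the submitters' processing notes are StringTie 1.3.1, HISAT2, Bowtie2 2.2.8 and fastp 0.18.0, with the build mm10; the sources used here give no counting tool, annotation release or strand setting. The authors deposited raw read counts per gene and TPM values scaled for length within each library, per the file headers. They also deposited group means of TPM as a signal per gene, a log2 fold change and a p-value with its adjusted form, which were not used. No label says that replicates came from separate cultures, so the spread behind each p-value is that of these samples and may be technical. Replicate pairs differed by 2.19 to 3.34 in chi-square per degree of freedom over genes with at least 20 reads, above sampling noise.

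The test on counts was that of edgeR 4.0.16 under R 4.3.3 (glmQLFTest, TMM factors, filterByExpr) on all genes, CAR-Trem2-Ms over CAR-Ms, with Benjamini-Hochberg adjustment and a threshold of 0.05. CPM are counts scaled to library size with TMM factors, and the SE is the fold change over the root of F. TPM were tested as log2(TPM + 1) with limma 3.58.1, keeping genes that reached a TPM of 1 in 3 samples. TPM sum to a constant, so strong changes in some genes shift all others on that scale. Other alternatives were RLE, upper quartile and total-count scaling, other filters, DESeq2 1.42.0, limma-voom, leaving out mitochondrial transcripts or each sample, a replicate block and stricter thresholds. A correction for GC content and length (loess, span 0.3, GENCODE vM21 transcripts) was added after seeing the data. The fits were tested on simulated counts. On log2(TPM + 1) too many unchanged genes were called until those counts were scaled on unchanged genes. The calls on log2(TPM + 1) given here keep the shift that this scaling took out. All 32 identifiers matched GENCODE vM21 (GRCm38), the source of gene positions and exon overlaps; copies were searched with BLAST 2.17.0 (at least 200 bases, 95% identity). Intervals and floors of 3 counts cover counting error only, since PCR copies are not independent molecules.

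The members and gene lists were chosen with earlier results of these data known. The ratio pairs, the promoters and motifs shown and the genes in the plot of feeding and regulating genes were chosen after their values were seen. By rule, values in every sample are given for members changed by at least 1 on the log2 scale, for pyruvate dehydrogenase subunits and for the member of each enzyme group with the highest TPM. Each further list gives up to 3 changed genes with at least 50 reads and the largest change, plus Pdk1 to Pdk4 and Acod1; some genes these rules take are not reported here.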

Additional observations from a re-analysis of the deposited data

How the results depend on the processing

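The counts of 20 members lower and 4 higher were the same with RLE factors, DESeq2, limma-voom, no filter on low counts, mitochondrial transcripts left out and the replicate block. Scaling moved them: 7 members were higher with upper quartile factors, 1 on log2(TPM + 1) and 3 with total-count scaling. Asking for at least 10 reads in every sample of a group gave 5 higher, and the GC and length correction gave 3 higher and 21 lower. The members' median log2 fold change was -0.15 with upper quartile factors, -0.51 with total-count scaling, -0.43 with no filter, -1.09 on log2(TPM + 1) and -0.46 after the GC and length correction. Over all genes, 1890 were higher and 6946 lower on log2(TPM + 1). In the further lists, 35 genes were higher with upper quartile factors, and 7 higher and 39 lower on log2(TPM + 1). Asking for a log2 fold change of at least 1 left 3765 genes (2136 higher, 1629 lower), 4 members (1 higher, 3 lower) and 9 higher and 9 lower genes of the further lists. With upper quartile factors the sign turned for Sdhc (0.091) and Idh3g (0.20). On log2(TPM + 1) it turned for Mdh1 (-0.28), Sdhb (-0.45), Pdhb (-0.48), Pcx (-0.30), Idh1 (-0.45) and Slc25a22 (-0.063). After the GC and length correction it turned for Sdhb (-0.11), and without CAR-Trem2-Ms replicate 3 for Idh3g (0.021, with a range of -0.12 to 0.021 over the samples left out). The cause was not tested.

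Leaving out each sample gave 19 to 20 members lower and 4 to 7 higher. The 7 came without CAR-Trem2-Ms replicate 3, when Pcx, Idh1 and Ogdhl passed as higher. The replicate numbers gave no sign of pairing: deviations of same-numbered samples correlated at 0.028, -0.027 and 0.032, and CAR-Trem2-Ms replicate 2 correlated best with another number. With the replicate block 9188 genes were called, against 9245 without it, and 24 members in each. Depth limits statements on Ogdhl and Pck1, with 35 and 24 reads in all.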
